A study of Mus musculus with 6 samples.

Results

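Cells keep peroxides and electrophiles in check with glutathione and thioredoxin. The 34 genes described here belong to these systems in mouse. They were chosen as a named list of the transcription factor NRF2 and its inhibitor, the enzymes commonly used to mark NRF2 activity, and the enzymes of glutathione synthesis, thioredoxin, peroxiredoxins, superoxide dismutases, catalase, glutathione peroxidases and glutathione S-transferases. All 34 were found by symbol among the 56953 genes of the count tables, and 33 had enough counts to be tested. Gstm2, which encodes a mu-class glutathione S-transferase, had 0 counts in all 6 libraries. With a floor of 3 counts this allows a level of up to 0.052 to 0.0571 CPM (counts scaled to the total of the library).

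Glutathione is a tripeptide made by glutamate-cysteine ligase and glutathione synthetase, and its oxidised form is returned to the reduced form by glutathione reductase with NADPH. Glutathione peroxidases and S-transferases use it to reduce peroxides and to conjugate reactive compounds, while thioredoxin and its reductases serve the peroxiredoxins. KEAP1 holds NRF2 at a low level until electrophiles or oxidants modify it, after which NRF2 binds antioxidant response elements in many of these genes.

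The cells were natural killer (NK) cells, cytotoxic lymphocytes of innate immunity, isolated from spleens of C57BL/6 mice. They were kept for 7 days with interleukin-2 (IL-2, 1700 U/ml) and 5% CO2, at 1% oxygen (hypoxia) or at 20% oxygen (normoxia). Each group holds 3 libraries, called biological replicates by the labels. The sources used here do not give their origin (mouse, pool or culture), so the p-values measure only the spread between these libraries.

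Libraries held 55104810 to 55794698 estimated counts each, which makes 1 count worth 0.0173 to 0.019 CPM. Levels are given as CPM after TMM scaling, a normalization that corrects for differences in composition. Fold changes are log2 ratios, hypoxia over normoxia, each with a standard error (SE). A gene is called higher or lower where the quasi-likelihood test of edgeR gave a Benjamini-Hochberg adjusted p under 0.05 over all 15591 genes tested. Libraries of different groups that carry the same replicate number deviated together, so calls are also given from a fit with the replicate number as a term (the replicate block) where these differ. The replicate 1 libraries of both groups stood apart from the other 4 on the second principal component, which held 22.0% of the variance.

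The 10 NK cell markers summed to 17400 to 20400 CPM in hypoxia and 19000 to 20900 CPM in normoxia, and Eomes was called lower and 0 higher. With the replicate block 7 of the 10 were called, Eomes, Ncr1, Klrk1, Prf1 and Il2rb lower and Nkg7 and Tbx21 higher. Markers of other cell types moved with oxygen. The 5 basophil and mast cell markers summed to 76.1 to 89.6 CPM in hypoxia against 19.1 to 27.2 CPM in normoxia, and nearly all of this came from Mcpt8. Mcpt8 and Cpa3 were called higher, while the defining markers of these cells, Fcer1a and Ms4a2, held at most 0.0178 CPM in any library. Cpa3 lost its call without hypoxia replicate 1 (edgeR adjusted p = 0.078) and without the normoxia libraries 2 (0.10) or 3 (0.069). The 5 dendritic cell markers summed to 316 to 357 CPM in hypoxia and 172 to 196 CPM in normoxia, and nearly all of this came from Itgax, which was called higher. Xcr1 was also higher (log2 fold change 1.23, edgeR adjusted p = 0.024), a call lost without hypoxia replicate 2 (0.076) or 3 (0.085), or normoxia replicate 2 (0.066) or 3 (0.084). Zbtb46 was lower (-0.71, edgeR adjusted p = 0.0020), and Flt3 held at most 0.0914 CPM. The 6 macrophage and monocyte markers summed to 81.3 to 116 CPM in hypoxia and 61.3 to 84.3 CPM in normoxia. Of these Cd68 and Lyz2 were higher, Ly6c2 was lower, Csf1r was not called (-0.04, edgeR adjusted p = 0.93) and Adgre1 reached at most 0.019 CPM. Of 8 T cell markers, summing to 152 to 195 CPM in hypoxia and 97.0 to 113 CPM in normoxia, Cd3d, Cd3g and Cd4 were higher, and Cd8b1 too with the block. Cd3e (-0.05, edgeR adjusted p = 0.86), Cd6 (0.05, 0.94), Cd8a and Cd5 were not called, with or without the block. Neutrophil markers summed to at most 2.68 CPM in hypoxia and 0.324 CPM in normoxia. Only 3 of 7 had enough counts to be tested, and these 3 were called higher. B cell markers reached 1.14 CPM in hypoxia and 0.525 CPM in normoxia, and of 5 only Cd79b was tested, and it was higher. Among untested B cell and neutrophil genes, Cd79a and Ly6g had lower means in hypoxia and Elane and Mpo higher ones, none above 0.174 CPM. The 6 erythroid markers, 0 of them tested, reached 0.14 CPM in hypoxia and 0.0724 CPM in normoxia, and Slc4a1 was at 0 throughout. The part of these cells in the results below was not tested, and in bulk libraries fewer cells of a type and less RNA per cell cannot be told apart.

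After 7 days at low oxygen, the antioxidant genes did not move together. Of the 33 tested members, 6 were higher in hypoxia (Gstm5, Gstt2, Gstm1, Prdx5, Gclc and Nfe2l2), 3 were lower (Gclm, Gss and Txn1) and 24 were not called. The called share, 27.3%, stands beside 20.9% of all genes tested, made up of 11.2% higher and 9.72% lower. With the replicate block 10 members were higher and 9 lower, or 57.6%, where 39.2% of all genes were called (19.2% higher, 20.0% lower). For 13 members (7 higher, 6 lower) the 2 groups of libraries did not overlap, or 39.4%, against 38.3% of all genes (19.6% higher, 18.7% lower). The median log2 fold change of the 33 was 0.06 and that of all genes -0.0052, and the medians without regard to sign were 0.16 for the members and 0.20 for all genes.

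Changes were small outside the glutathione S-transferases. Of the 33 tested members, Gstm5 alone was called with a change of at least 2-fold. Among all 15591 genes tested, 656 were called at least 2-fold higher. Only Gstm5, Gstt2 and Gstm1, 3 of 33 members, were called with at least 1.5-fold, beside 10.7% of all genes. With the replicate block and all libraries, Gclm, Gss and Txn1 were lower (edgeR adjusted p = 0.0043, 0.0051 and 0.0014). In the fit without the block, which the left-out libraries also used, these 3 lower calls rested on the full set of libraries. None of Gclm, Gss and Txn1 was called when hypoxia replicate 2 or 3 was left out, nor when normoxia replicate 3 was. With scaling by library size alone 0 of them were called, while 7 members were higher. That scaling called 6.40% of all genes lower and 15.3% higher (21.7% in all). Without hypoxia replicate 1 or normoxia replicate 1 all 3 calls were lost as well, and 1 other member was called lower (Prdx3 and Keap1, as given below). Of the 24 members that were not called, fold changes ran from -0.30 to 0.55 and edgeR adjusted p from 0.060 to 0.93, and for 21 the 95% interval of the change lay within 1.5-fold in either direction. The exceptions were Gstm4, Mgst2 and Mgst3.

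**Figure D1:**
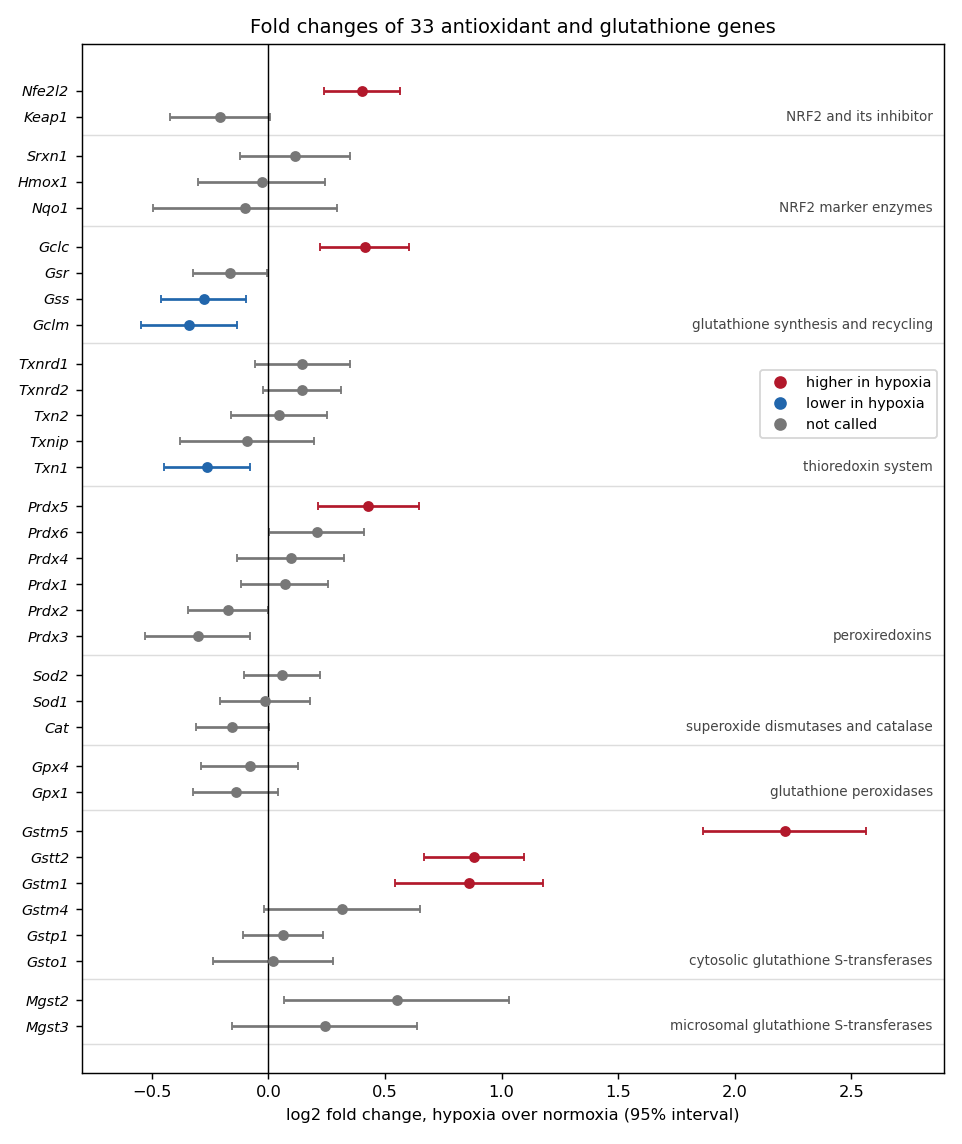
Log2 fold change of each tested member (x axis, hypoxia over normoxia, with 95% interval), grouped by role down the page. Red points are the 6 members called higher in hypoxia, blue points the 3 called lower and grey points the 24 not called. Gstm5 lies farthest to the right, at 2.21.

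The glutathione S-transferases held the largest changes. These enzymes join glutathione to electrophiles. Of 6 tested cytosolic members 3 were higher and 0 lower, beside 11.2% and 9.72% of all genes. Gstm5, a mu-class enzyme gene, stood at 13.2, 11.9 and 13.6 CPM in hypoxia, against 3.43, 2.75 and 2.18 CPM in normoxia. Its lowest hypoxia library was well above its highest normoxia library, and the difference was 4.64-fold (log2 2.21, SE 0.16, edgeR adjusted p = 2.4e-05).

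Gstt2, of the theta class, stood at 25.0, 24.7 and 23.6 CPM in hypoxia, against 13.7, 14.5 and 11.6 CPM in normoxia. Hypoxia libraries were close to each other and all above normoxia, a difference of 0.88 on the log2 scale (SE 0.10, edgeR adjusted p = 0.00025). Gstm1, the mu-class gene with the most counts here, stood at 24.4, 18.3 and 23.8 CPM in hypoxia, against 14.6, 10.9 and 11.1 CPM in normoxia. Its replicate 1 library was the highest in each group, the groups did not overlap, and hypoxia was higher by 0.86 on the log2 scale (SE 0.14, edgeR adjusted p = 0.0024). All 3 kept their calls under every alternative tried.

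Gstm4 was not called. It stood at 17.2, 13.3 and 12.3 CPM in hypoxia and 13.5, 11.2 and 9.78 CPM in normoxia, and the groups overlapped although hypoxia was higher in each of the 3 same-numbered pairs (log2 fold change 0.31, edgeR adjusted p = 0.17). With the replicate block its adjusted p was 0.0042, and without normoxia replicate 1 it was 0.0496. Gstp1, of the pi class, and Gsto1, of the omega class, differed by 0.06 and 0.02 on the log2 scale (edgeR adjusted p = 0.61 and 0.93). Gstp1 lay between 96.9 and 109 CPM in hypoxia and between 92.7 and 103 CPM in normoxia. Gsto1 lay between 20.6 and 24.6 CPM in hypoxia and between 20.0 and 25.8 CPM in normoxia, and its sign turned in 3 of the leave-outs of a library.

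The microsomal members Mgst2 and Mgst3, membrane proteins of another fold, were at low levels. Mgst2, which can make leukotriene C4, stood at 6.10, 7.07 and 4.59 CPM in hypoxia and 4.63, 4.67 and 2.83 CPM in normoxia, replicate 3 being lowest in each group. Its fold change of 0.55 on the log2 scale (SE 0.22) had the widest interval of the tested members, 0.07 to 1.03, and was not called (edgeR adjusted p = 0.10). It was called higher with the replicate block (0.0017), with no filter on low counts (0.016) and by DESeq2 (adjusted p = 0.048). Mgst3 differed by 0.24 (edgeR adjusted p = 0.38).

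**Figure D2:**
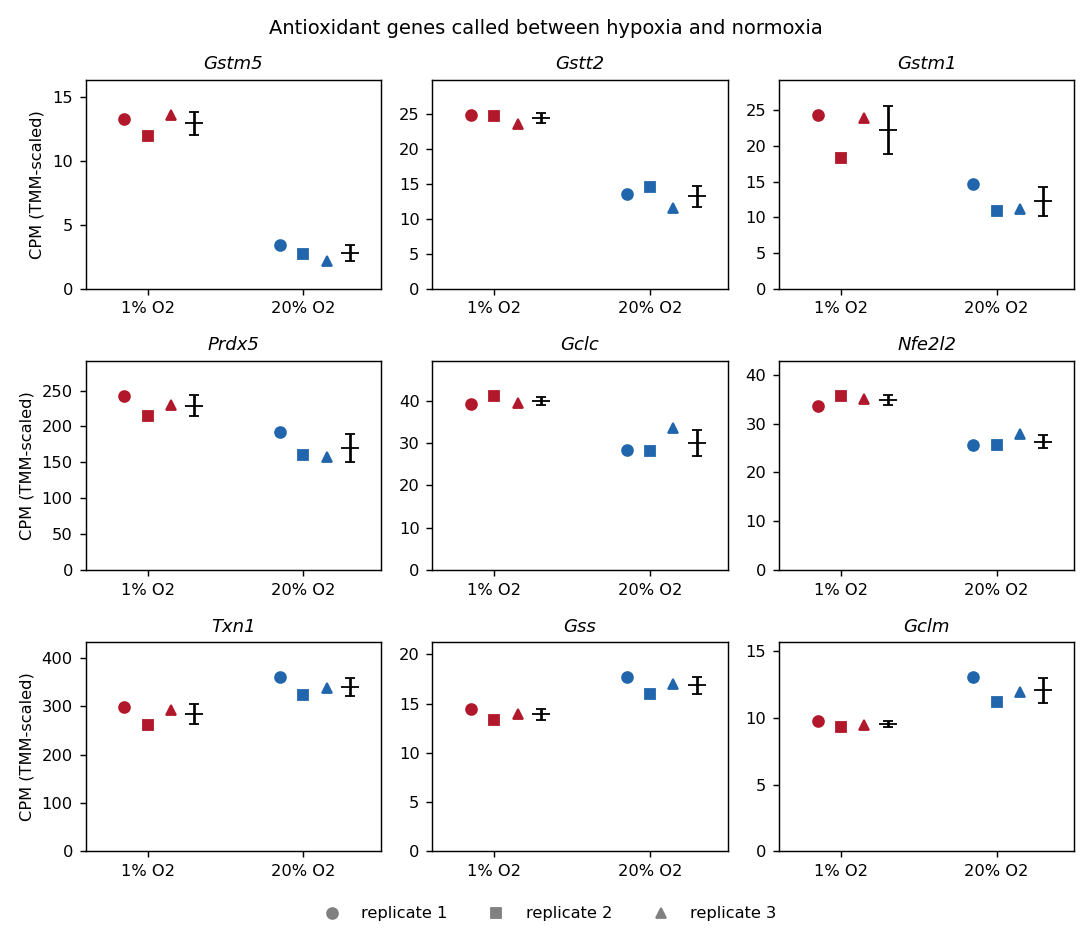
CPM in each library (y axis, linear, from 0) of the 9 called members, with hypoxia libraries left and normoxia libraries right in each panel and the group mean with its SD in black and a marker shape for each replicate number. The groups do not overlap in any of the 9 panels; Gstm5 shows the widest gap, 13.2, 11.9 and 13.6 CPM in hypoxia against 3.43, 2.75 and 2.18 CPM in normoxia.

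Because the mu-class genes resemble each other, reads can be divided between them. Of the 31-base words of Gstm1 transcripts, 28.8% also occur in transcripts of other genes, most often the pseudogene Gstm2-ps1, so part of its estimated count is uncertain. Gstm5 shared no 31-base word with another gene on the same strand. The 7 mu-class genes summed to 54.9, 43.7 and 49.9 CPM in hypoxia, against 31.5, 25.0 and 23.1 CPM in normoxia, a ratio of 1.86. This ratio does not depend on how reads were divided among these 7 genes. It can still depend on reads shared with genes outside the 7, such as Gstm2-ps1 or a gene on the opposite strand. Gstm5 made up 24.1%, 27.3% and 27.2% of the sum of the 7 genes in hypoxia and 10.9%, 11.0% and 9.41% in normoxia. Its share of the family thus did not overlap between the groups.

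Genes beside Gstm5 and Gstt2 were looked at after their values were seen. The mu-class genes lie together on chromosome 3 (order of the GRCm38.p6 RefSeq annotation). Eps8l3, the neighbour beyond Gstm5, stood at 3.84, 2.58 and 3.61 CPM in hypoxia and 0.476, 0.308 and 0.402 CPM in normoxia (log2 fold change 3.08, SE 0.24, edgeR adjusted p = 3.7e-05). Ampd2, the neighbour at the other end beyond Gstm4, was not called (-0.06, edgeR adjusted p = 0.65). Farther out beyond Eps8l3, Ahcyl1 was higher by 0.26 (edgeR adjusted p = 0.042), a call lost without hypoxia replicate 1 (0.14) or 2 (0.10), or normoxia replicate 2 (0.14) or 3 (0.13), and with no filter on low counts (0.062). Along the row, Gstm5, Gstm1 and Gstm4 stood in falling order of fold change, and the differences between them were not tested.

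The gene 4933431E20Rik lies antisense to Gstm5 and overlaps 178 of its exonic bases. It stood at 15.5, 13.0 and 12.9 CPM in hypoxia, against 3.56, 3.55 and 3.05 CPM in normoxia (log2 fold change 2.02, SE 0.12, edgeR adjusted p = 1.1e-05). On the opposite strand it accounts for 148 of the 1331 words of 31 bases in Gstm5 transcripts, 11.1%. The libraries were strand-specific by the labels, but whether strand was used in counting is not given in the sources used here. Reads from the shared bases may then not be told apart, and the part of this overlap in the Gstm5 values was not tested.

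The theta-class genes lie together on chromosome 10. Gstt1 stood at 7.71, 6.76 and 5.82 CPM in hypoxia, against 1.37, 1.56 and 1.39 CPM in normoxia (log2 fold change 2.23, SE 0.15, edgeR adjusted p = 2.1e-05). Gstt3 stood at 4.99, 5.20 and 4.52 CPM in hypoxia, against 1.79, 1.54 and 1.04 CPM in normoxia (1.75, SE 0.19, edgeR adjusted p = 0.00028). Gstt2 had the most counts of the 3 and the smallest of their fold changes, a difference that was not tested. Ddt and Mif, which encode tautomerases and flank the theta-class genes, differed by 0.29 and 0.30 (edgeR adjusted p = 0.028 and 0.038), and both calls were lost without hypoxia replicate 1 (0.062 for Ddt, 0.12 for Mif) or 2 (0.11, 0.098), or normoxia replicate 2 (0.11, 0.13) or 3 (0.078, 0.12). Farther out, 4 further genes were higher and Cabin1 and Smarcb1 were not called, where 11.2% of all genes tested were higher. Susd2 was higher by 2.62, Ggt5 by 1.09, Derl3 by 1.22 and Mmp11 by 1.64 (edgeR adjusted p = 1.6e-05, 0.0013, 0.0035 and 0.017). Derl3 and Mmp11 were at low levels, with means of 1.12 and 0.428 CPM in hypoxia and 0.481 and 0.137 CPM in normoxia. The Mmp11 call was lost without hypoxia replicate 3 (0.066) and without normoxia replicate 2 (0.075) or 3 (0.061).

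**Figure D3:**
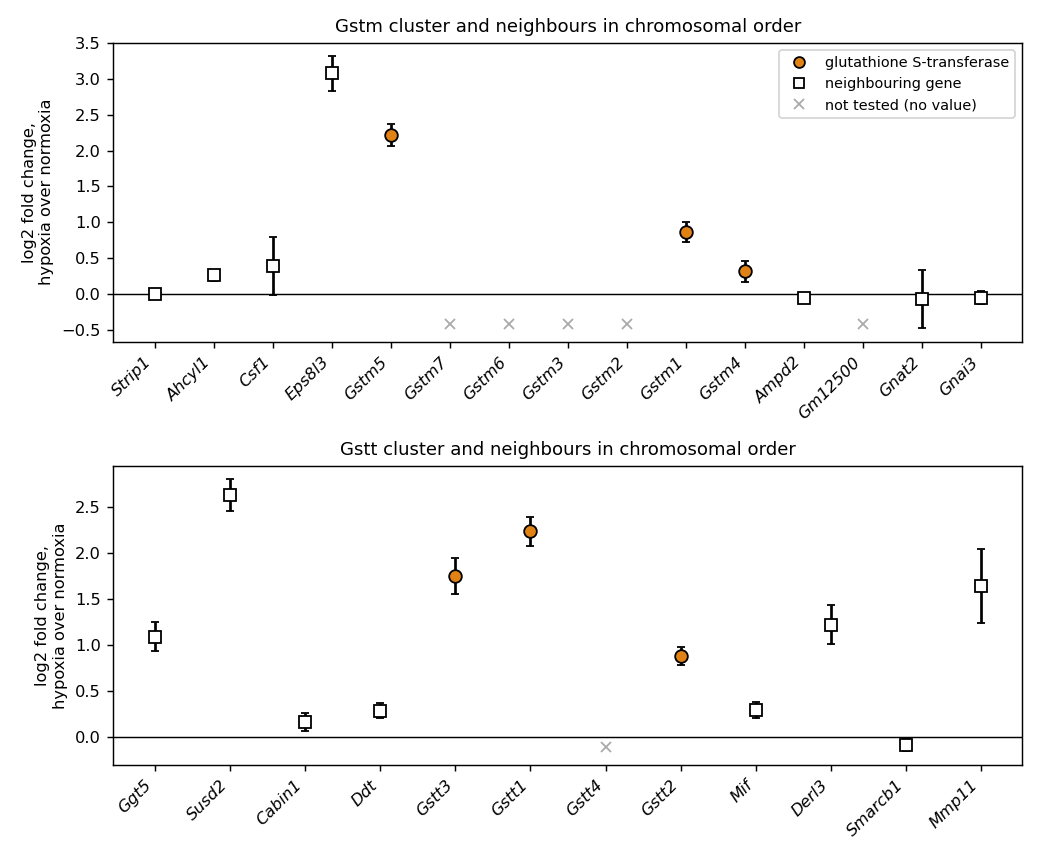
Log2 fold change (y axis, hypoxia over normoxia, bars are 1 SE) of the genes of the mu-class (upper panel) and theta-class (lower panel) clusters and their neighbours, in chromosomal order along the x axis without scale. Filled circles are glutathione S-transferases, open squares neighbouring genes, and crosses at the lower edge genes that were not tested. Eps8l3 (3.08) and Gstm5 (2.21) stand above their neighbours in the upper panel, and Susd2 (2.62), Gstt3 (1.75) and Gstt1 (2.23) in the lower.

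Glutathione synthesis showed changes of opposite sign within a single enzyme. Glutamate-cysteine ligase, which makes the rate-limiting step, has a catalytic subunit from Gclc and a modifier subunit from Gclm. Gclc stood at 39.3, 41.1 and 39.4 CPM in hypoxia, against 28.3, 28.2 and 33.5 CPM in normoxia. Every hypoxia library was above every normoxia library (log2 fold change 0.41, SE 0.09, edgeR adjusted p = 0.0080).

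Gclm stood at 9.74, 9.32 and 9.45 CPM in hypoxia, against 13.0, 11.2 and 11.9 CPM in normoxia. Here every hypoxia library was below every normoxia library (log2 fold change -0.34, SE 0.09, edgeR adjusted p = 0.027). The call was lost with scaling by library size alone (edgeR adjusted p = 0.067) and without hypoxia replicate 1 (0.061), 2 (0.12) or 3 (0.075), or normoxia replicate 1 (0.065) or 3 (0.054), and with both replicate 1 libraries left out (0.082). With the replicate block Gclm was called lower (edgeR adjusted p = 0.0043). The ratio of Gclc to Gclm counts, which no scaling affects, was 4.03, 4.41 and 4.18 in hypoxia, against 2.17, 2.53 and 2.82 in normoxia. Because neither gene overlapped and their signs were opposite, the groups could not overlap in this ratio, which therefore adds no separate evidence.

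Gss, which encodes glutathione synthetase, stood at 14.5, 13.3 and 13.9 CPM in hypoxia and 17.7, 15.9 and 17.0 CPM in normoxia. All hypoxia libraries were below the normoxia libraries by a small step (log2 fold change -0.28, SE 0.08, edgeR adjusted p = 0.038). The call was lost without any of the 6 libraries (0.060 to 0.18), with library size alone (0.11), with no filter on low counts (0.070) and with both replicate 1 libraries left out (0.068). With the replicate block Gss was called lower (edgeR adjusted p = 0.0051). Acss2, whose exons overlap Gss on the opposite strand, was also lower (log2 fold change -0.69, edgeR adjusted p = 0.0012), and of the words of 31 bases in Gss 12.8% occur in other genes on either strand, so reads of the overlap are uncertain. Gsr, the gene of glutathione reductase, lay between 57.5 and 62.0 CPM in hypoxia and between 62.6 and 68.5 CPM in normoxia. The groups did not overlap, but the difference of -0.16 was not called (edgeR adjusted p = 0.13; 0.023 with the replicate block).

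Nfe2l2, the gene of NRF2, stood at 33.7, 35.7 and 35.0 CPM in hypoxia, against 25.5, 25.6 and 27.8 CPM in normoxia. Hypoxia was higher in every library, a difference of 0.40 on the log2 scale (SE 0.07, edgeR adjusted p = 0.0041). Keap1, which encodes the adaptor that targets NRF2 for degradation, stood at 66.6, 77.0 and 79.0 CPM in hypoxia and 75.6, 90.6 and 90.8 CPM in normoxia. Its groups overlapped through the replicate 1 libraries, the lowest of each group, and the difference of -0.21 (SE 0.10) was not called (edgeR adjusted p = 0.16). With the replicate block it was called lower (0.0041), as it was without normoxia replicate 1 (0.034) or without both replicate 1 libraries (0.049). Of the 31-base words of Keap1, 9.02% occur in other genes, all on the opposite strand, where Gm16754 overlaps it. Gm16754 was not called (0.51, edgeR adjusted p = 0.063), and the part of this overlap was not tested.

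Of the 3 enzymes commonly read as marks of NRF2 activity, 0 were called, beside 20.9% of all genes. Nqo1, a quinone reductase gene, stood at 1.17, 1.37 and 1.33 CPM in hypoxia and 1.47, 1.27 and 1.43 CPM in normoxia, the fewest counts of the tested members. Its interval ran from -0.50 to 0.29 on the log2 scale (edgeR adjusted p = 0.74). Hmox1, which encodes the haem-degrading enzyme heme oxygenase 1, stood at 12.0, 11.1 and 9.70 CPM in hypoxia and 12.9, 10.1 and 10.4 CPM in normoxia. The libraries were interleaved, the interval was -0.30 to 0.24 (edgeR adjusted p = 0.90), and the sign turned with scaling by library size alone. Srxn1, the sulfiredoxin that repairs over-oxidised peroxiredoxins, differed by 0.11, with an interval of -0.12 to 0.35 (edgeR adjusted p = 0.50). With the replicate block these 3 were still not called.

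Promoter sequences are shown for 4 called members because their windows hold a core of the element that NRF2 binds or of the element that hypoxia-inducible factors bind. A RefSeq promoter (GRCm38.p6, 250 bases before to 50 after the start site) was at hand for 29 members. The antioxidant response element core, TGACNNNGC on either strand, was in the window of 7 of the 29 (24.1%) and of 14.0% of the 27018 genes in the table. The hypoxia response element core, ACGTG on either strand, was in 7 of the 29 (24.1%) and in 21.8% of all genes. Capitals mark these cores, and positions are counted from the start site. Gstm5 (chr3:107895604-107895903, plus strand) holds the first core from position -42. Gstm1 (chr3:108017769-108018068, minus strand) holds the second at -50, read on the other strand. Nfe2l2 (chr2:75704614-75704913, minus strand) holds the first at -240. Gclm (chr3:122245307-122245606, plus strand) holds the first at -134 and the second at -67, both read on the other strand.
Gstm5: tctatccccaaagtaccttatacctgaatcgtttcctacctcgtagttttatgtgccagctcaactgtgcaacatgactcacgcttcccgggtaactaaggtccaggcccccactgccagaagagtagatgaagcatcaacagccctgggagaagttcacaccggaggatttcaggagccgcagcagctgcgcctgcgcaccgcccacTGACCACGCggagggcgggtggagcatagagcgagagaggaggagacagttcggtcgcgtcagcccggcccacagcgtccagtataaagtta
Gstm1: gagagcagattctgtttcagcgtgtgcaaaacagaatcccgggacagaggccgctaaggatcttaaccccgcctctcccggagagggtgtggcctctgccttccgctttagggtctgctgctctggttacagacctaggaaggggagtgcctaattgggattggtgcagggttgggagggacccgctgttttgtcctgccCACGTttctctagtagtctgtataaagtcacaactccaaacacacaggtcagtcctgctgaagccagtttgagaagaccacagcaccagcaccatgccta
Nfe2l2: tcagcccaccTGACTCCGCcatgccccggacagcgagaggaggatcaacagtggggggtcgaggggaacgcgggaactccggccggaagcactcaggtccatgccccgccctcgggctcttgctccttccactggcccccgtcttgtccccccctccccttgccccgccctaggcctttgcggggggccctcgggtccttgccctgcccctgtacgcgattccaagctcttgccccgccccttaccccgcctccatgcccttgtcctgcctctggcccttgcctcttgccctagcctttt
Gclm: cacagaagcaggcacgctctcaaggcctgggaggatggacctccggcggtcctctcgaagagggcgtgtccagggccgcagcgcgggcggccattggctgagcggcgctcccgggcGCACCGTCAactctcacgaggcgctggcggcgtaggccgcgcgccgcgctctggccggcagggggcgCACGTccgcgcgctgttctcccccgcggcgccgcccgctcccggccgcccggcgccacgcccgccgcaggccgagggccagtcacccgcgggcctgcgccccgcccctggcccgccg

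These windows belong to 3 members that were higher and 1 that was lower in hypoxia. Among the remaining called members, Prdx5, Gss and Txn1 had a window with neither core, and Gclc and Gstt2 had no window. A further window of Gstm1 also held neither core. The antioxidant core was also in the windows of Prdx1, Sod1, Srxn1 and Txnrd1, and the hypoxia core in those of Gpx1, Gstp1, Keap1, Prdx4 and Txnrd2, all of them members that were not called. With A or G required before it, the antioxidant core was in 0 of the 4 higher and 0 of the 3 lower members with a window. It was in 2 of the 21 not called, beside 7.21% of all genes. The antioxidant cores marked in Gstm5, Nfe2l2 and Gclm thus lack that A or G. A match of such short letters is a description of the window and does not show binding.

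Thioredoxin and its partners changed little. Txn1, the cytosolic thioredoxin gene, stood at 298, 261 and 292 CPM in hypoxia, against 360, 323 and 338 CPM in normoxia. All hypoxia libraries were below all normoxia libraries (log2 fold change -0.26, SE 0.08, edgeR adjusted p = 0.049). This call was at the threshold and was lost without any of the 6 libraries (0.065 to 0.24), with library size alone (0.11) and with a stricter filter on low counts (0.052). With the replicate block Txn1 was called lower (edgeR adjusted p = 0.0014).

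Txnrd1, the gene of the cytosolic thioredoxin reductase, stood at 158, 166 and 180 CPM in hypoxia and 143, 143 and 170 CPM in normoxia, replicate 3 being highest in each group. The groups overlapped, and the difference of 0.14 was not called (edgeR adjusted p = 0.30; 0.034 with the replicate block). Txnrd2, its mitochondrial counterpart, lay between 22.4 and 23.0 CPM in hypoxia and between 19.8 and 21.8 CPM in normoxia without overlap (0.14, edgeR adjusted p = 0.22). Txn2, mitochondrial thioredoxin, differed by 0.05 (edgeR adjusted p = 0.77).

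Txnip, which encodes a thioredoxin-binding inhibitor that also restrains glucose uptake, had the most counts of all members. It lay close together in hypoxia, at 662, 636 and 638 CPM, and widely spread in normoxia, at 817, 699 and 546 CPM. The means were 645 ± 14.2 CPM in hypoxia and 687 ± 136 CPM in normoxia (SD, n = 3 each). The difference was smaller than the spread in normoxia (log2 fold change -0.09, edgeR adjusted p = 0.67), and its sign turned without normoxia replicate 1. Of the 31-base words of Txnip, 17.4% occur in other genes on either strand. Gm15441, which overlaps it on the opposite strand, was not called (-0.23, edgeR adjusted p = 0.72). The part of this overlap was not tested.

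Of the 6 peroxiredoxins, which reduce peroxides with a reactive cysteine, 1 was called higher and 0 lower, beside 11.2% and 9.72% of all genes. With the replicate block 2 were higher and 2 lower, beside 19.2% and 20.0% of all genes. Prdx5, found in mitochondria, peroxisomes and cytosol, stood at 243, 214 and 231 CPM in hypoxia, against 193, 161 and 157 CPM in normoxia. The lowest hypoxia library was above the highest normoxia library (log2 fold change 0.43, SE 0.10, edgeR adjusted p = 0.012). The call was lost without normoxia replicate 2 (0.057). Of its words of 31 bases, 16.9% occur in other genes, all of them on the opposite strand, where Trmt112 overlaps it, and Trmt112 itself was not called (-0.05).

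Prdx3, the mitochondrial member, stood at 71.2, 60.4 and 64.0 CPM in hypoxia and 91.7, 72.2 and 77.4 CPM in normoxia. Its hypoxia libraries were all below the normoxia libraries, by -0.26 to -0.37 on the log2 scale in the same-numbered pairs. The log2 fold change of -0.30 (SE 0.10) missed the threshold (edgeR adjusted p = 0.060). It was called lower with the replicate block (0.00051), with no filter on low counts (0.015), without hypoxia replicate 1 (0.046), normoxia replicate 2 (0.049) or both replicate 1 libraries (0.034), and by DESeq2 (adjusted p = 0.033).

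Prdx6, a peroxiredoxin that draws on glutathione, stood at 229, 202 and 216 CPM in hypoxia and 207, 171 and 182 CPM in normoxia. Hypoxia was higher in all 3 pairs while the groups overlapped at a single library, and the difference of 0.21 was not called (edgeR adjusted p = 0.14; 0.0061 with the replicate block, 0.027 with library size alone, 0.032 without normoxia replicate 1, 0.046 without both replicate 1 libraries). Prdx2, a cytosolic member, lay between 81.3 and 89.1 CPM in hypoxia and between 87.7 and 100 CPM in normoxia (-0.17, edgeR adjusted p = 0.14; 0.018 with the block). Of the 31-base words of Prdx2, 16.5% occur in other genes on either strand. Rnaseh2a and Junb overlap it on the opposite strand. Rnaseh2a was lower (-0.28, edgeR adjusted p = 0.041) and Junb was not called (0.01), and the part of this overlap was not tested. Prdx1, also cytosolic, and Prdx4, of the endoplasmic reticulum, differed by 0.07 and 0.10 (edgeR adjusted p = 0.61 and 0.57). The 6 genes together summed to 926, 863 and 932 CPM in hypoxia and 890, 769 and 833 CPM in normoxia, so the sum overlapped between the groups.

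The superoxide dismutases were not called. Sod1, the copper and zinc enzyme of the cytosol, stood at 147, 169 and 180 CPM in hypoxia and 167, 166 and 168 CPM in normoxia. Its hypoxia libraries lay on both sides of normoxia, and the interval was -0.21 to 0.18 (edgeR adjusted p = 0.93). Sod2, the manganese enzyme of mitochondria, stood at 51.7, 49.9 and 52.7 CPM in hypoxia and 48.2, 47.1 and 53.0 CPM in normoxia (interval -0.10 to 0.22, edgeR adjusted p = 0.63). For both genes the interval thus held no change beyond 1.5-fold.

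Catalase, which breaks down hydrogen peroxide, had its Cat mRNA at 75.8, 78.6 and 78.6 CPM in hypoxia and 92.6, 82.6 and 84.3 CPM in normoxia. The groups did not overlap, but the difference of -0.15 was not called (edgeR adjusted p = 0.16; 0.041 with the replicate block). Gpx1, the main cytosolic glutathione peroxidase gene, lay between 104 and 117 CPM in hypoxia and between 114 and 129 CPM in normoxia (-0.14, edgeR adjusted p = 0.26; 0.030 with the block). Gpx4, whose enzyme reduces lipid peroxides in membranes and guards against ferroptosis, stood at 126, 149 and 159 CPM in hypoxia and 148, 152 and 159 CPM in normoxia. Only hypoxia replicate 1 lay apart, and the interval was -0.29 to 0.13 (edgeR adjusted p = 0.60). Of the 31-base words of Gpx4, 38.9% are shared with other genes, nearly all with a pseudogene, Gpx4-ps2, so its count is the least certain in this respect. Gstp1 was close to it, with 38.5% shared, all with Gstp2, and Sod2 had 26.6%, so the counts of both carry the same limit.

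The wider network was read from a list of 95 further genes of glutathione, thioredoxin, NADPH supply and NRF2 control, of which 94 were matched and 84 tested. In hypoxia 14 were higher and 10 lower, with a median log2 fold change of -0.01, beside 11.2% higher and 9.72% lower among all genes. With the replicate block 22 were higher and 22 lower, beside 19.2% and 20.0% of all genes. Without hypoxia replicate 2, 9 were higher. The 4 called genes of smallest p in each list are named here. Of 9 other glutathione S-transferases, 3 were higher and 1 lower: Gstt1 and Gstt3 as above, Gsta4 at 0.456, 0.381 and 0.427 CPM in hypoxia against 0.0762, 0.0181 and 0.183 CPM in normoxia (edgeR adjusted p = 0.014), and Gstcd, lower by a small step (-0.26, edgeR adjusted p = 0.026). With the block 4 were higher and 2 lower. The Gstcd call was lost with library size alone (0.12) and without hypoxia replicate 1 (0.054), 2 (0.15) or 3 (0.078), or normoxia replicate 2 (0.069) or 3 (0.069).

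Among 34 other glutathione and thioredoxin enzymes, 4 were higher and 2 lower, beside 11.2% and 9.72% of all genes. With the block 10 were higher and 4 lower, beside 19.2% and 20.0% of all genes. Gpx8, a peroxidase of the endoplasmic reticulum, stood at 37.7, 28.1 and 36.4 CPM in hypoxia against 19.0, 13.9 and 13.2 CPM in normoxia (log2 fold change 1.15, edgeR adjusted p = 0.00079). Ggt1 and Ggt5, gamma-glutamyl transferase genes whose products cleave glutathione outside the cell, were higher by 1.57 and 1.09 (edgeR adjusted p = 0.0016 and 0.0013). Both were at low levels, Ggt1 with means of 1.25 CPM in hypoxia and 0.419 CPM in normoxia, and Ggt5 with 3.71 and 1.74 CPM. Prxl2a, a peroxiredoxin-like gene, was lower by 1.05 on the log2 scale, at 6.69, 5.35 and 5.50 CPM in hypoxia against 14.1, 11.1 and 11.2 CPM in normoxia (edgeR adjusted p = 0.00057).

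Of 13 genes of cystine uptake and NADPH supply, 2 were higher and 4 lower, beside 11.2% and 9.72% of all genes. With the block 2 were higher and 8 lower, beside 19.2% and 20.0% of all genes. The 4 gained were G6pdx, Pgd, Taldo1 and Tkt, of the pentose phosphate pathway. Slc3a2, the heavy chain of several amino acid transporters including the cystine carrier, stood at 165, 154 and 154 CPM in hypoxia against 278, 250 and 227 CPM in normoxia (log2 fold change -0.67, edgeR adjusted p = 0.00071). Mthfd2, of mitochondrial folate metabolism, differed by -0.76 (edgeR adjusted p = 0.00016). The NADPH-making isocitrate dehydrogenases differed in sign: Idh1, in the cytosol, by -0.69 (edgeR adjusted p = 0.0023) and Idh2, in mitochondria, by 0.52 (edgeR adjusted p = 0.0032). Slc7a11, the light chain of the cystine carrier, named after its values were seen, had few counts, at 0.280, 0.329 and 0.107 CPM in hypoxia and 1.39, 0.688 and 0.749 CPM in normoxia (-1.96, SE 0.41, edgeR adjusted p = 0.0087).

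NRF2 partners, competitors and other targets gave 3 higher and 3 lower of 22, beside 11.2% and 9.72% of all genes. With the block 4 were higher and 7 lower, beside 19.2% and 20.0% of all genes. Osgin1, a target of NRF2, lay between 30.97 and 32.5 CPM in hypoxia and between 48.1 and 59.5 CPM in normoxia (log2 fold change -0.79, edgeR adjusted p = 0.00029), and Sqstm1, whose product p62 binds KEAP1, differed by -0.51 (edgeR adjusted p = 0.0030). Ephx1, an epoxide hydrolase gene, was higher by 0.98 (edgeR adjusted p = 0.00086). Bach2, which encodes a repressor that competes for related elements, was lower by 0.44 on the log2 scale (edgeR adjusted p = 0.027). The Bach2 call was lost with library size alone (0.074), without hypoxia replicate 1 (0.088) or 3 (0.084), without normoxia replicate 2 (0.10) and without both replicate 1 libraries (0.090).

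**Figure D4:**
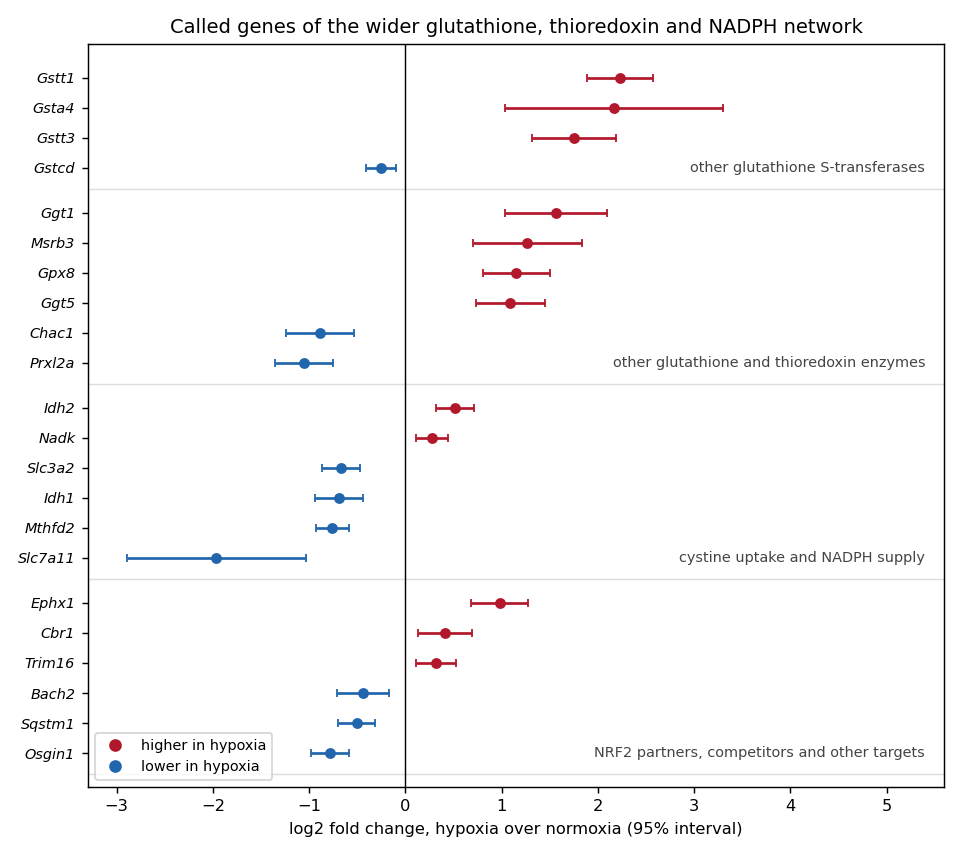
Log2 fold change (x axis, hypoxia over normoxia, with 95% interval) of called genes in 4 lists of the wider network, grouped by list down the page. Red points are genes higher in hypoxia and blue points the 10 lower. Gstt1 (2.23) lies farthest to the right of the genes above 1 CPM, and Slc7a11 (-1.96) farthest to the left.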

How the data were processed

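RNA was measured in 6 libraries of cultured mouse NK cells, 3 in hypoxia and 3 in normoxia. Per the labels' protocols the libraries were strand-specific mRNA libraries for DNBSEQ. Trim Galore 0.6.4, kallisto 0.4.6, edgeR 3.17 and GRCm39 are named in the submitters' processing notes. The authors deposited estimated counts per Ensembl gene, not normalized (69.4% of values whole within 1e-06), and log2 CPM, identical to what edgeR gives with prior count 2 and without TMM. The deposited log2 values served only for this check. Symbols came from a GENCODE M21 table (52029 of 56953 IDs), which also gave transcript sequences and overlaps.

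Counts were rounded, filtered with filterByExpr (minimum count 10, minimum total 15), scaled with TMM and tested in edgeR 4.0.16 (glmQLFit, glmQLFTest) with no covariate. Alternatives used other scalings and filters, DESeq2 1.42.0, limma 3.58.1 (voom), the replicate block, and left-out libraries. Across genes, hypoxia and normoxia libraries of like number deviated from their groups with correlations of 0.467, 0.332 and 0.298, so by a criterion of 0.1 the numbers in the labels were taken to pair the libraries. Of the pairs of unlike number, hypoxia 2 with normoxia 3 also passed it (0.118). The block took the biological coefficient of variation to 5.64%, against 10.9% without it. Floors cover counting error only.

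The members and lists were chosen with earlier results of these data known. Called members are given in full, as are the central genes of each role. Other members are given by ranges, and of each further list up to 4 called genes of smallest p are named. The further lists hold 95 genes in 5 groups, of which 1 is counted in the totals but not reported here. Other genes were named after their values were seen.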

Additional observations from a re-analysis of the deposited data

How the results depend on the processing

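Of 462 fold changes of members under 14 alternatives, 396 kept their direction and their side of the threshold, 25 lost the call, 23 gained it and 18 turned in sign. No called member turned in sign, and Gstm5, Gstt2, Gstm1, Gclc and Nfe2l2 kept their calls under all 14. The cause of the changes below was not tested.

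The replicate block raised the calls to 2988 higher and 3120 lower among all genes, to 10 and 9 among the members, and to 22 and 22 in the wider network. With library size alone, 998 genes and 0 members were lower, and the median change over all genes moved to 0.08. Without a single library, 1146 to 1980 genes were higher and 804 to 1636 lower, 5 to 8 members were higher and 0 to 2 lower, and 9 to 15 genes of the network were higher. The shorter antioxidant core TGACNNNG was in 14 members (48.3%, against 44.4% of all genes), and the core with A or G required before it was in 2 (6.9%, against 7.21%), so members and all genes lay closer with either than with the core TGACNNNGC (24.1% against 14.0%). The added library-size scaling put the ratio of the mu-class sum at 1.98.

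The members whose fold change turned in sign were called in none of the 14 alternatives. Without a single library, Hmox1 ran from -0.10 to 0.087, Txn2 from -0.028 to 0.11, Txnip from -0.23 to 0.051, Sod1 from -0.077 to 0.062, Gpx4 from -0.15 to 0.010 and Gsto1 from -0.056 to 0.14. Hmox1 was at 0.057 with library size alone, 0.053 without hypoxia replicate 3, 0.087 without normoxia replicate 1 and 0.015 with both replicate 1 libraries left out. Nqo1 was then at 0.0048. Sod1 was at 0.067 with library size alone, 0.0019 with the stricter filter, and 0.062 without hypoxia replicate 1 as well as without both replicate 1 libraries. Gpx4 was at 0.0016 with library size alone and 0.010 without hypoxia replicate 1. Txnip was at 0.051 without normoxia replicate 1 and 0.034 without both replicate 1 libraries. Txn2 was at -0.028 without hypoxia replicate 1 and -0.026 without normoxia replicate 2. Gsto1 was at -0.056, -0.047 and -0.039 without hypoxia replicate 3, normoxia replicate 1 and normoxia replicate 2.

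With 3 libraries a group, an exact permutation test of a single gene cannot go below 0.1, so calls rest on the spread shared across genes by the fit. Members held 67 to 42933 counts in a library, and Gstm2 was not detectable at this depth. The block changed no call of a member other than those named beside their values.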
